A study of Mus musculus with 4 samples.

Results

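The 52 protein-coding mouse genes for translation initiation factors were examined for Ruvbl2 CUT&Tag peaks, out of 21887 protein-coding genes in all. They were chosen by symbol, from Eif1 to Eif6 in the RefSeq gene table for mm10, and the Eif2ak kinase genes were left out. CUT&Tag uses an antibody to bring a transposase to chromatin, so a peak marks DNA cut near the antibody's target, here the AAA+ ATPase Ruvbl2. The first group was leukaemia stem cells (LSC) from bone marrow of Nup214fl/+ mice with disease driven by MLL-AF9, gated as Lin-, Sca-1-, c-Kit+, CD16/32+ and CD34+. The second group was haematopoietic stem cells (HSC) from bone marrow of Nup214fl/+ mice, gated as CD48-, CD150+ LSK. Both groups thus carry the floxed Nup214 allele, no Cre is named, and neither the age nor the strain of the mice is given. Each group had 2 libraries, taken here in the order LSC replicates 1 and 2 and HSC replicates 1 and 2. The labels do not say whether these came from separate animals, and p-values measure only the spread between these libraries. Both replicate 1 libraries held many peaks on the Y chromosome and both replicate 2 libraries few, so the libraries of a group were not alike in Y content. The LSC gate is also that of normal granulocyte-monocyte progenitors, so leukaemia and cell maturity cannot be told apart. The secondary antibody was goat anti-rabbit, and the labels do not name the host of the Ruvbl2 antibody. No library without the Ruvbl2 antibody is named in the labels, and whether the peaks below depend on Ruvbl2 was not tested.

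Initiation factors bring the ribosome to the start codon. eIF4F, made of the cap-binding eIF4E, the scaffold eIF4G and the helicase eIF4A, recruits the mRNA, while eIF3, eIF1 and eIF1A sit on the small subunit and eIF2 delivers the initiator tRNA. eIF2B recharges eIF2 with GTP, eIF5 triggers GTP hydrolysis, eIF5B joins the large subunit, and eIF6 keeps the subunits apart until then. Their supply and their control by eIF2 phosphorylation and mTOR set the protein output of a cell, which is kept low in haematopoietic stem cells and is raised in many leukaemias.

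Promoters are shown first for 5 of the members listed in all 4 libraries, those with an annotated start that a listed peak covered in at least 2 libraries, because the peaks described next lie on or near them. Each runs from 200 bases before the annotated start site to 25 bases from it, in RefSeq's sequence for GRCm38.p6. Capitals mark matches to the motifs searched, described further on.

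Eif4a1 (chr11:69672399-69672623, minus strand): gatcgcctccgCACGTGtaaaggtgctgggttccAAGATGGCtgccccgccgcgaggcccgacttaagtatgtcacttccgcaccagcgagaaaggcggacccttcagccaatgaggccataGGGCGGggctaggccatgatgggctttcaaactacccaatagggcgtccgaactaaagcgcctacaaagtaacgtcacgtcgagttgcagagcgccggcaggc
Eif5a (chr11:69921362-69921586, minus strand): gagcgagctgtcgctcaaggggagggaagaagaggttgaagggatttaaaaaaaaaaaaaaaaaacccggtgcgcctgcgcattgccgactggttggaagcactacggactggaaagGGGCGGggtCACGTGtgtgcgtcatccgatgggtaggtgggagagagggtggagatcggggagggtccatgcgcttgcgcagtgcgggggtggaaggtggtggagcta
Eif3f (chr7:108934215-108934439, plus strand): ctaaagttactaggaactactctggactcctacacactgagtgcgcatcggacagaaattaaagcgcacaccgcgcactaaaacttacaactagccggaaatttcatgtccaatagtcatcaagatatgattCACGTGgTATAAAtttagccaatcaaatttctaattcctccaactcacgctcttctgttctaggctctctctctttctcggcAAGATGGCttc
Eif3k (chr7:28981864-28982088, minus strand): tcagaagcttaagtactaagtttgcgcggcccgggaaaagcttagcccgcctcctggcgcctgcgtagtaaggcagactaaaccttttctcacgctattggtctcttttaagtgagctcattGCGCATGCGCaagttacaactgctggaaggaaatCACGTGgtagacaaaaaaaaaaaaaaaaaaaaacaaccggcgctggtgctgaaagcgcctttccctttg
Eif1 (chr11:100319749-100319973, plus strand): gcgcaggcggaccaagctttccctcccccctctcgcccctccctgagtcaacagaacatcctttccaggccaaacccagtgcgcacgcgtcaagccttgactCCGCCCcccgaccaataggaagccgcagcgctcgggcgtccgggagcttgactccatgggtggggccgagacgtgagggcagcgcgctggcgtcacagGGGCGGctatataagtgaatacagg

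A listed peak covered the start base in 4 libraries at Eif4a1 and Eif5a, in 3 at Eif1, and in 2 at Eif3f and Eif3k. A listed peak is one of the 20000 strongest of its library by the deposited −log10 p, a cut that gives all libraries lists of equal length. Genes are called listed where a peak of this kind overlapped the gene body or its 1000 bp flanks. The weakest listed peak had an authors' fold of 28.4 and 18.2 in LSC replicates 1 and 2 and of 22.7 and 12.7 in HSC replicates 1 and 2. The deposited lists held 216077 and 210541 peaks in LSC and 161655 and 286107 in HSC. The full lists ranked kept chromosomes 1 to 19, X and Y, with 213978 and 208855 peaks in LSC and 159842 and 284974 in HSC. Ranks beyond the cut are thus values within lists of unequal length and are not compared between libraries. The authors' fold is the height of the peak over the background of its own library, with 1 added to each. The fold is given to describe a peak within its own library, while the order of peaks comes from −log10 p. Folds of different libraries are over different backgrounds. The peak lists give no read totals, so sequencing depth is unknown; the background recovered from the peak values was 4.46 and 3.72 fragments in LSC and 2.66 and 4.34 in HSC.

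The members listed in all 4 libraries were Eif4a1, Eif5a, Eif4g2, Eif4g3, Eif3f, Eif3k and Eif1. They make up 7 of 52 members (13.5%), beside 11.3% of all protein-coding genes, so that this share was near the background. Leaving out a library can only keep or raise this count, and the background without a library was not counted. Without LSC replicate 1, 11 members were listed in all the libraries left. Leaving out LSC replicate 2 gave 9, and leaving out HSC replicate 1 or 2 gave 10 and 7.

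Eif4a1, which encodes the main RNA helicase of eIF4F, had ranks of 95 and 157 in LSC replicates 1 and 2 and of 146 and 114 in HSC replicates 1 and 2. Its authors' folds were 229 and 97.6 in LSC and 102 and 79.9 in HSC. The height at the summit, recovered as a whole number of overlapping fragments, was 1251 and 460 in LSC and 374 and 426 in HSC. All 4 libraries placed the gene among their strongest peaks, and the order of the ranks does not separate the cell types. Every pair of libraries had overlapping best peaks, and the summits lay at -9 and -69 bp from the start site in LSC and at -182 and -41 bp in HSC, where negative is upstream. The gene lies on the minus strand of chromosome 11, positions 69666936 to 69672423. An end of Senp3 lies within 1000 bp of the same peaks, so the signal cannot be given to either gene alone.

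Eif5a, whose product carries the hypusine residue and helps ribosomes through slow peptide bonds, ranked 105 and 41 in LSC replicates 1 and 2 and 174 and 53 in HSC replicates 1 and 2. The authors' folds were 202 and 189 in LSC and 96.5 and 122 in HSC. Both replicate 2 libraries ranked the gene higher than both replicate 1 libraries, whatever the cell type. The best peaks of all library pairs overlapped around the several annotated starts of this gene (chromosome 11, 69916712 to 69921958), and no other gene ended there. The peak of LSC replicate 1 ran from 69920936 to 69922010.

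Eif4g2 encodes the eIF4G relative DAP5, which lacks the eIF4E-binding part. It ranked 1207 and 323 in LSC replicates 1 and 2 and 4867 and 919 in HSC replicates 1 and 2, with folds of 90.6 and 74.5 in LSC and 41.5 and 33.7 in HSC. The best peaks overlapped in every pair of libraries, at the gene end near position 111083030 of chromosome 7. Within each replicate number LSC ranked the gene higher, but LSC replicate 1 and HSC replicate 2 stood the other way round.

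The eIF3 subunit genes Eif3k and Eif3f came next. Eif3k ranked 10595 and 1821 in LSC replicates 1 and 2 and 531 and 1447 in HSC replicates 1 and 2. Here both HSC libraries ranked the gene above both LSC libraries, a pattern with no test of its own in a design of 2 against 2. The summits lay at -102 and -531 bp from the start in LSC and at -741 and -475 bp in HSC, and an end of Map4k1 lies at the same peaks. Eif3f ranked 237 and 1704 in LSC and 5863 and 1291 in HSC, with folds of 137 and 40.7 in LSC and 39.4 and 29.4 in HSC. Its peaks in 3 libraries were at the start site, while that of HSC replicate 1 lay 4579 bp downstream inside the gene, so that this listing rests on another site.

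Eif1 encodes the factor that guards start codon choice. It ranked 10905 and 559 in LSC replicates 1 and 2 and 17496 and 238 in HSC replicates 1 and 2. Both replicate 1 ranks were far lower in the list than both replicate 2 ranks. The best peaks lay at the start in 3 libraries, and 2753 bp downstream, past the end of the gene, in HSC replicate 1. Eif4g3, for the scaffold eIF4GII, is the longest member at 215308 bp and held 35 and 25 peaks in LSC and 15 and 33 in HSC. It was listed in all libraries with ranks of 1089 and 4561 in LSC and 4421 and 5505 in HSC, yet no pair of libraries had overlapping best peaks there. The best peaks of Eif4g3 thus lie at 4 different places in a long gene, and its other peaks were not compared.

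**Figure D1:**
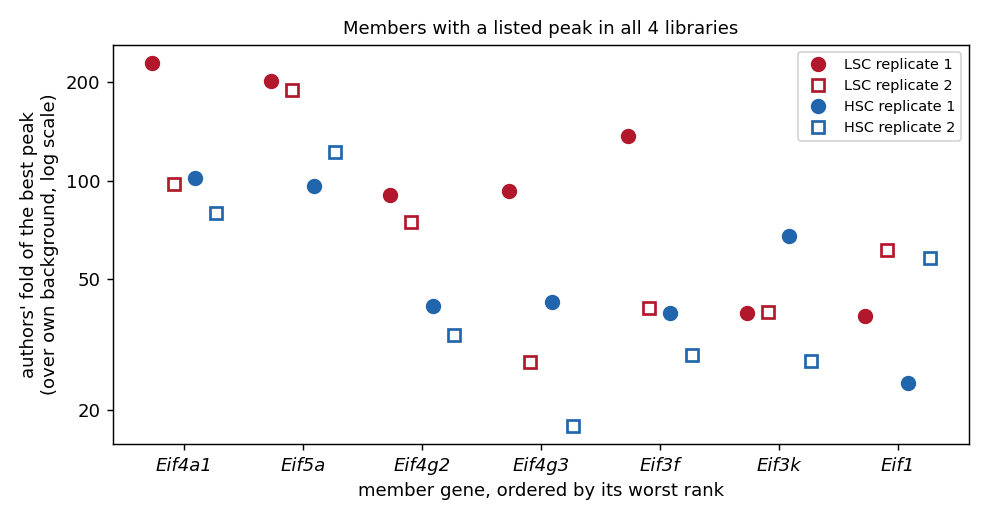
Authors' fold of the best peak (log scale, over the background of the same library) at each of the 7 members listed in all 4 libraries, ordered by worst rank; each symbol is 1 library. The folds ran from 17.8 for Eif4g3 in HSC replicate 2 to 229 for Eif4a1 in LSC replicate 1; heights of different libraries are on different backgrounds.

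Counts over the group were set beside the background, the share of all protein-coding genes listed in the same library. In LSC replicates 1 and 2, 17 and 34 of 52 members were listed (32.7% and 65.4%), beside backgrounds of 32.3% and 41.2%. In HSC replicates 1 and 2 the counts were 20 and 31 (38.5% and 59.6%), beside 30.2% and 41.2%. The members' share was well above the background in both replicate 2 libraries, somewhat above it in HSC replicate 1 and level with it in LSC replicate 1. The median best rank of the members was 53559 and 10088.5 in LSC and 43636 and 8576 in HSC, while over the background genes it was 49930 and 31379 in LSC and 56827 and 32132 in HSC. All protein-coding genes include many that are silent in blood, and the members' excess was not compared with expressed genes alone. Some best listed peaks also lay at an end of another protein-coding gene: 3 of 17 and 12 of 34 in LSC and 4 of 20 and 9 of 31 in HSC.

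**Figure D2:**
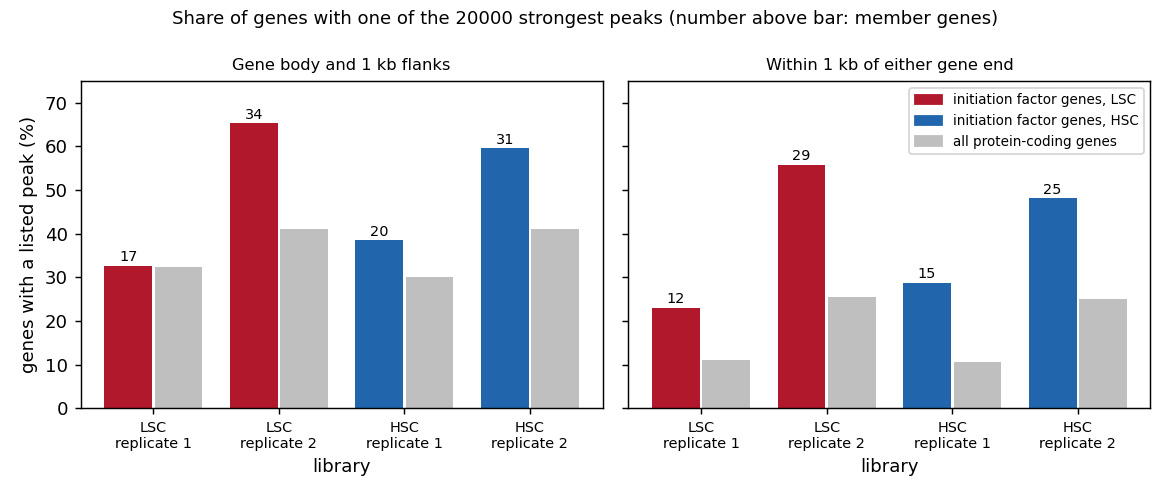
Percent of genes with a listed peak in each library, for the 52 members (coloured, with their number above) and all 21887 protein-coding genes (grey), in the gene body with 1 kb flanks (left) and within 1 kb of either gene end (right). At gene ends the members' bars are the taller in every library, with 29 of 52 in LSC replicate 2 the highest count.

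Window length mattered for this background, because a long gene collects peaks anywhere in its body. Members had a median length of 17408 bp, close to the 17169 bp of all protein-coding genes. Among the 25 members no longer than the median gene, 11 and 17 were listed in LSC replicates 1 and 2 (44.0% and 68.0%), beside 16.3% and 29.4% of all genes of that length. In HSC replicates 1 and 2 they numbered 12 and 16 (48.0% and 64.0%), beside 15.6% and 29.8%. Listed in all 4 libraries were 6 of these 25 (24.0%), beside 4.73%.

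The 27 longer members behaved otherwise. They were listed in 6 and 17 cases in LSC replicates 1 and 2 (22.2% and 63.0%), beside 48.4% and 52.9% of all longer genes, and in 8 and 15 cases in HSC replicates 1 and 2 (29.6% and 55.6%), beside 44.8% and 52.7%. Eif4g3 alone was listed in all 4 (3.7%), beside 17.9%. In both replicate 1 libraries the share of longer members was below that of longer genes as a whole. In LSC replicate 2 it was somewhat above, and in HSC replicate 2 it was near that share. Across the 52 members the number of deposited peaks followed gene length, with Pearson's r of 0.933 and 0.916 in LSC and 0.802 and 0.93 in HSC, which describes genes that share their library.

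Counting only peaks within 1000 bp of a gene end gives every gene a window of similar size. On this count 12 and 29 members were listed in LSC replicates 1 and 2 (23.1% and 55.8%), beside backgrounds of 11.0% and 25.5%. In HSC replicates 1 and 2, 15 and 25 were listed (28.8% and 48.1%), beside 10.6% and 25.1%. Listed in all 4 libraries were Eif1, Eif3k, Eif4a1, Eif4g2 and Eif5a, 5 of 52 (9.62%), beside 2.91%.

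A start site was annotated for 40 of the members. At a distance of up to 1000 bp, listed peaks lay at 8 and 22 of these starts in LSC replicates 1 and 2 (20.0% and 55.0%), beside 9.54% and 24.8% of the 17492 genes with an annotated start. In HSC replicates 1 and 2 they lay at 9 and 18 (22.5% and 45.0%), beside 9.03% and 24.1%. Eif1, Eif3k, Eif4a1 and Eif5a had them in all 4 libraries (10.0%), beside 2.84%. Taking only the best listed peak of a member, it was at the start in 7 of 14 and 22 of 25 members in LSC replicates 1 and 2, and in 7 of 17 and 18 of 24 in HSC replicates 1 and 2. Over all genes 24.8% and 52.7% of best listed peaks were at the start in LSC and 25.8% and 51.7% in HSC. Members with such a peak had a median summit at -102 and -70.5 bp in LSC and at -241 and -38 bp in HSC.

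**Figure D3:**
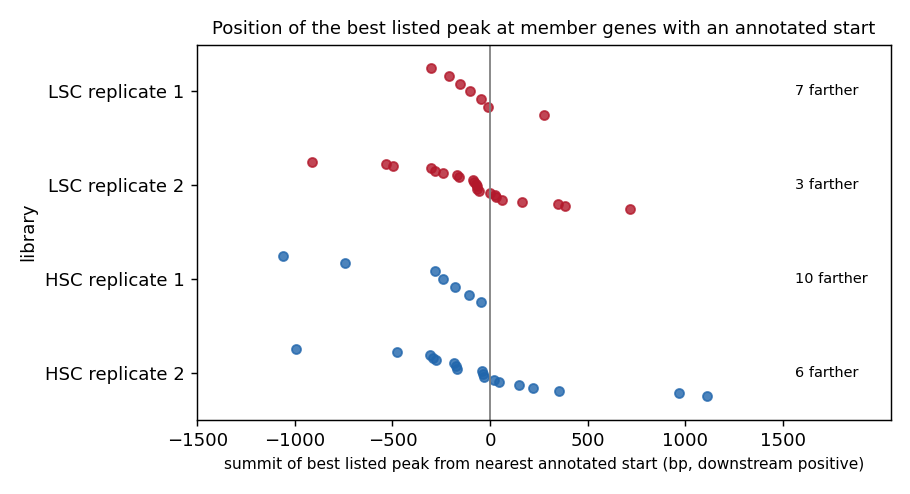
Distance in bp from the nearest annotated start site to the summit of the best listed peak, for members with an annotated start; each point is a member, rows are libraries, and points within a row are spread vertically for display only. Most points of both replicate 2 libraries lie near the start, while 7 and 3 peaks in LSC replicates 1 and 2 and 10 and 6 in HSC replicates 1 and 2 lay farther away and are given as numbers.

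The question of the design is whether the 2 cell types differ at these genes. The mean number of members listed was 25.5 ± 12.0 in LSC and 25.5 ± 7.78 in HSC (SD, n = 2 each). The difference of 0 gave p = 1 in a two-sided exact permutation test over libraries, in which 4 libraries allow 3 splits and the smallest possible p is 0.333. Within the replicate numbers, whose peak lists follow different naming schemes, the difference LSC minus HSC was -3 at replicate 1 and 3 at replicate 2. No shift of the group between LSC and HSC was therefore larger than the spread between libraries, and a shift could not have passed a threshold of 0.05 in this design.

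Eif3a was the single member with listed peaks in both LSC libraries and no listed peak in HSC, 1 of 52 members (1.92%), beside 2.35% of all protein-coding genes. Eif3a encodes the largest subunit of eIF3. It ranked 15904 and 6477 in LSC replicates 1 and 2 and 39938 and 32404 in HSC replicates 1 and 2, so peaks lay there in HSC too, beyond the cut. In LSC the best peaks were at different places, 15359 bp into the gene in replicate 1 and at -159 bp from the start in replicate 2.

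Eif2b3 and Eif2d had listed peaks in both HSC libraries and none in LSC, 2 of 52 members (3.85%), beside 2.09%. Eif2b3, for the gamma subunit of eIF2B, ranked 62889 and 34945 in LSC replicates 1 and 2 and 10284 and 5715 in HSC replicates 1 and 2. Eif2d, for a factor that can place tRNA on the small subunit without GTP, ranked 87625 and 95364 in LSC and 5470 and 1331 in HSC. Neither gene had overlapping best peaks in any pair of libraries, and the Eif2d peak of HSC replicate 2 (chromosome 1, 131188632 to 131189388) only touched the flank of the gene. These 3 genes thus had different best peaks in the libraries of their own cell type, and their other peaks were not compared. Leaving out a library loosens the rule, so these small counts could only stay or rise. The LSC count was 9 without LSC replicate 1, 3 without LSC replicate 2, 1 without HSC replicate 1 and 4 without HSC replicate 2. The HSC count was 4, 6, 4 and 5 in the same order. Shares of all genes without a library were not counted, so nothing about the members is read from these counts.

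Of the pairs of libraries that alone listed a member, the replicate 2 pair held the most. Exactly LSC replicate 2 and HSC replicate 2 listed 11 of 52 members (21.2%), beside a background of 7.3%. Exactly LSC replicate 1 and HSC replicate 1 listed 2 (3.85%), beside 1.93%. The crossed pairs, LSC replicate 1 with HSC replicate 2 and LSC replicate 2 with HSC replicate 1, listed 0 members each, beside 2.35% and 1.97%. Of the 25 members listed in both replicate 2 libraries, 19 had overlapping best peaks (76.0%), beside 52.7% of all genes listed in both. In the other pairs the best peaks overlapped for 40.0% to 66.7% of the members, beside 18.5% to 29.9% of all genes listed in both. In LSC replicate 1 and HSC replicate 2 the share was 66.7%, beside 27.7%, so members stood above all genes in pairs of every kind. Shares outside the replicate 2 pair rest on few members, 6 of 11 in LSC replicates 1 and 2. Eif4a1, Eif5a and Eif4g2 had overlapping best peaks in every pair. Gene length was not matched: in LSC replicate 1, 6 of 17 listed members exceeded the median gene's length, beside 5293 of 7073 listed genes. What the libraries of a replicate number have in common besides the peak naming is not given in the labels, and its part in these counts was not tested.

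The 11 members of the replicate 2 pair came from 4 factors. Factors are taken here from the digit in the symbol, not from the protein complex. Eif2s1, Eif2s3x, Eif2b2, Eif2b5 and Eif2a fall under factor 2, and Eif4e, Eif4e3 and Eif4ebp1 under factor 4. Eif3b and Eif3h fall under factor 3, and Eif1ad, under factor 1, carries an eIF1A-like domain. Eif2s1, which encodes the alpha subunit of eIF2 whose phosphorylation slows initiation, ranked 59944 and 464 in LSC replicates 1 and 2 and 61149 and 132 in HSC replicates 1 and 2. The folds were 16.8 and 65.6 in LSC and 15.0 and 75.4 in HSC. The gene stood near the top of both replicate 2 lists and had weaker peaks at the same place in both replicate 1 lists, since all 6 pairs of best peaks overlapped. An end of Atp6v1d, not told apart as start or 3' end, lay within 1000 bp of the same peaks near the Eif2s1 start (chromosome 12, 78862072).

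**Figure D4:**
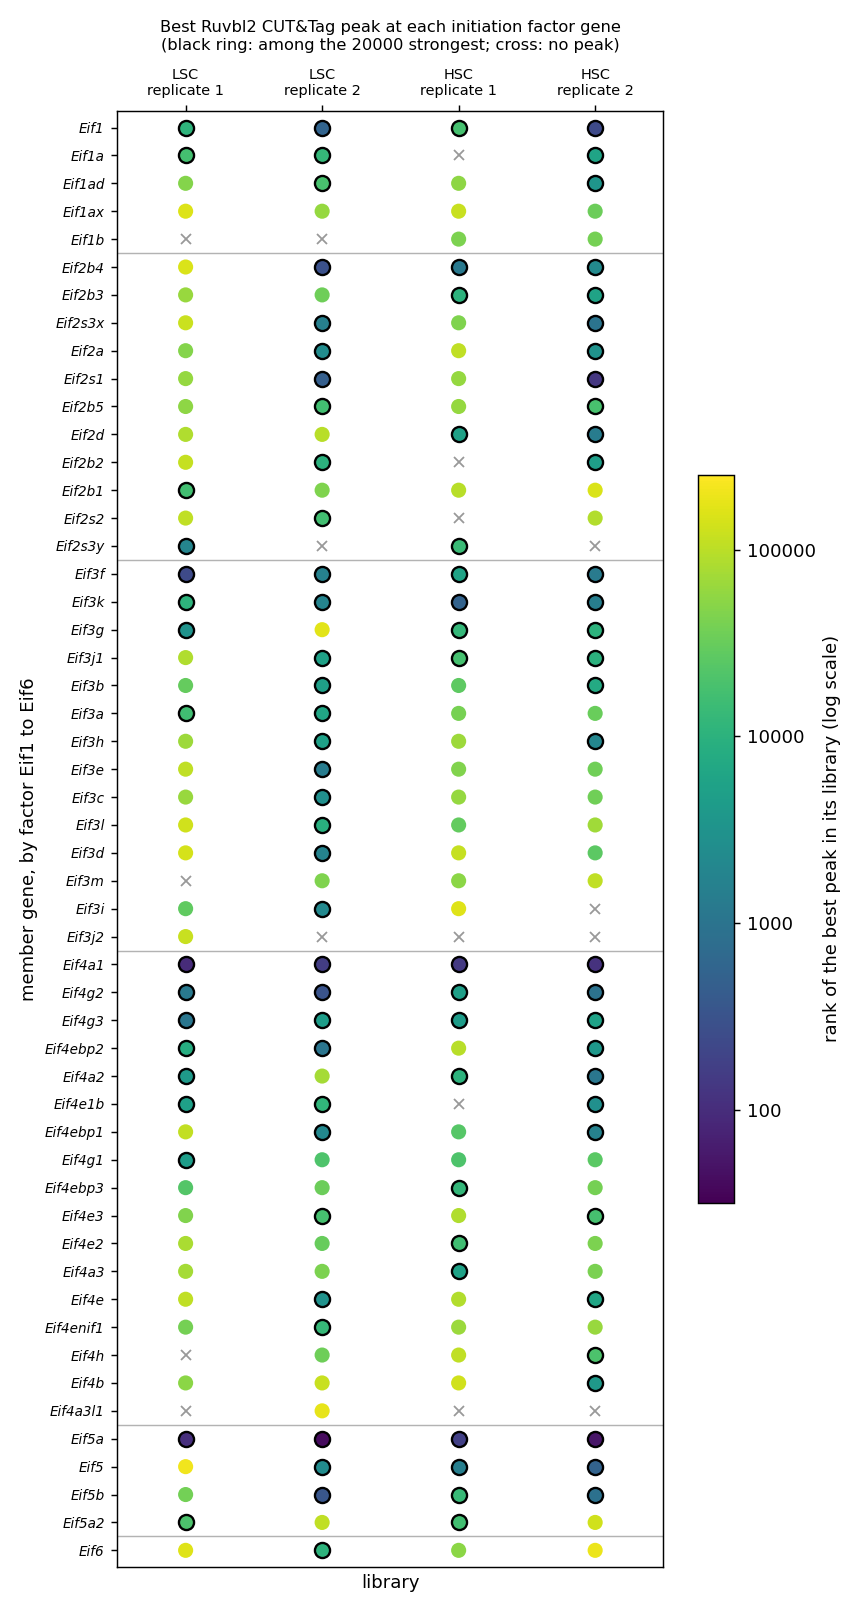
Rank of the best deposited peak (colour, log scale) of each of the 52 members in each library, grouped from Eif1 to Eif6 and ordered by median rank within a factor; a black ring marks a rank within the strongest 20000 and a cross marks no peak. Eif4a1 and Eif5a are dark across all 4 columns, and both replicate 2 columns hold more ringed points (34 and 31) than both replicate 1 columns (17 and 20).

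The counts by factor rest on few genes. Their backgrounds were 32.3% and 41.2% in LSC replicates 1 and 2 and 30.2% and 41.2% in HSC replicates 1 and 2. Listed Eif1 genes numbered 2 and 3 of 5 in LSC replicates 1 and 2 and 1 and 3 in HSC replicates 1 and 2. Eif1a, which with its X-linked relative encodes the scanning factor eIF1A, ranked 17094 and 12568 in LSC and 5908 in HSC replicate 2, with no peak in HSC replicate 1. Its best peaks in both replicate 2 libraries also lay at an end of Tmed7, and that of LSC replicate 1 at the other end of Eif1a. Eif1ax and Eif1b were listed nowhere.

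The Eif2 genes gave 2 and 7 of 11 in LSC and 4 and 8 in HSC. In all 4 libraries 0 of 11 were listed, beside 11.3% of all genes, and no difference is read from so few. Eif2b4, for the delta subunit of the exchange factor eIF2B, had the best median rank among them. It ranked 149207 and 296 in LSC replicates 1 and 2 and 1196 and 2273 in HSC replicates 1 and 2, with folds of 7.87 and 76.2 in LSC and 56.9 and 24.0 in HSC. LSC replicate 1 stood apart from the other 3 libraries. The peaks in both replicate 2 libraries were at the end shared with Snx17, while that of HSC replicate 1 was at the other end of the gene. Eif2b1, for the alpha subunit of eIF2B, was listed in LSC replicate 1 alone (rank 16523), and Eif2s2, for the beta subunit of eIF2, in LSC replicate 2 alone (rank 16557).

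For the Eif3 genes the counts were 4 and 11 of 14 in LSC replicates 1 and 2 and 4 and 6 in HSC replicates 1 and 2. LSC replicate 2 alone listed Eif3c, Eif3d, Eif3e, Eif3i and Eif3l, with ranks of 1341 for Eif3e to 9180 for Eif3l. With Eif2s2, Eif4enif1 and Eif6 this made 8 of 52 members listed in LSC replicate 2 alone (15.4%), beside a background of 6.06%. HSC replicate 2 had peaks beyond the cut at 7 of the 8 and none at Eif3i. Eif3g, for an RNA-binding subunit, went the other way, with ranks of 3169 and 167690 in LSC and 12638 and 10076 in HSC, at or near its 3' end. Eif3m was listed nowhere.

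Of the 17 Eif4 genes, 7 and 9 were listed in LSC and 7 and 11 in HSC. Eif4ebp2, whose product holds eIF4E inactive until mTOR phosphorylates it, ranked 8466 and 1037 in LSC and 97414 and 3740 in HSC, so that HSC replicate 1 was the library without a listed peak. Its relative Eif4ebp1 ranked 109178 and 2123 in LSC and 23760 and 1711 in HSC, and Eif4ebp3 was listed in HSC replicate 1 alone (rank 11884). Eif4e1b, the oocyte form of the cap-binding protein, ranked 5031 and 11091 in LSC and 2785 in HSC replicate 2. These listed peaks also lay within 1000 bp of an end of Tspan17. Eif4b and Eif4h, which help the helicase, were listed in HSC replicate 2 alone, with ranks of 3894 and 19935. Eif4a3, a part of the exon junction complex, and the cap-binding repressor gene Eif4e2 were listed in HSC replicate 1 alone, with ranks of 5625 and 15963. Eif4a3l1 was listed nowhere.

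Of the 4 Eif5 genes, 2 and 3 were listed in LSC replicates 1 and 2 and 4 and 3 in HSC replicates 1 and 2. Eif5, which makes eIF2 hydrolyse its GTP, ranked 209361 and 2434 in LSC and 1492 and 527 in HSC. Its peak in LSC replicate 1 was among the weakest of that list, with a fold of 3.66. Eif5b, the GTPase of subunit joining, ranked 37715 and 354 in LSC and 13539 and 889 in HSC. Its best peaks in both replicate 2 libraries also lay at an end of Txndc9. Eif6, the only gene of its factor, ranked 161729 and 10350 in LSC and 52307 and 189743 in HSC and was thus listed in LSC replicate 2 alone. Its best peak in that library also lay at ends of Mmp24 and BC029722.

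Without the cut, peaks of any strength lay at 48 and 49 members in LSC replicates 1 and 2, beside backgrounds of 79.4% and 82.4%. In HSC replicates 1 and 2 they lay at 46 and 48 members, beside 73.0% and 85.0%. At 41 of 52 members (78.8%) they lay in all 4 libraries, beside 61.2%. The members listed in no library were Eif1ax, Eif1b, Eif3j2, Eif3m and Eif4a3l1, 5 of 52 (9.62%), beside 35.6%. Each of them had a peak beyond the cut in at least 1 library.

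Related genes did not share their peaks evenly. Eif4a2 encodes a helicase close to that of Eif4a1 and ranked 4111 and 75761 in LSC replicates 1 and 2 and 10223 and 1099 in HSC replicates 1 and 2, below Eif4a1 in every library. Eif5a2, the less widely used eIF5A gene, ranked 19617 and 106944 in LSC and 16491 and 133158 in HSC, also below Eif5a in every library, and its best peaks overlapped in no pair of libraries. Eif1b had no peak in either LSC library and ranked 42639 and 37804 in HSC, where Eif1 ranked higher. Eif3j1 ranked 85214 and 5320 in LSC and 18049 and 9885 in HSC, while Eif3j2 had a single peak-bearing library, LSC replicate 1 (rank 118649). Eif4g1, the main eIF4F scaffold, ranked 4535 and 20458 in LSC and 20550 and 24920 in HSC. It was just beyond the cut in LSC replicate 2 and HSC replicate 1, and below Eif4g3 in every library. Eif4g3 is 215308 bp long, beside 20164 bp for Eif4g1, so its best rank is taken from more peaks. At gene ends both were listed in 0 libraries. Eif4e ranked 106691 and 3087 in LSC and 90206 and 6196 in HSC, and Eif4e2 ranked 79684 and 31297 in LSC and 15963 and 42814 in HSC. How reads that map to several copies were handled is not given in the sources used here, so values of near-identical genes and their pseudogenes are uncertain.

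The X and Y copies of the eIF2 gamma subunit gene differed with the replicate number. Eif2s3y ranked 1872 in LSC replicate 1 and 13754 in HSC replicate 1, and had no peak in either replicate 2 library. Eif2s3x ranked 121934 and 1518 in LSC replicates 1 and 2 and 44633 and 1015 in HSC replicates 1 and 2. Both Eif2s3y peaks overlapped each other, with summits at -301 bp from the start in LSC replicate 1 and at -241 bp in HSC replicate 1. Beside this, peaks on the whole Y chromosome numbered 94.2 and 1.24 per 10000 in LSC and 91.8 and 0.561 in HSC, while peaks on X made up 2.65% and 3.94% of those in LSC and 2.79% and 4.27% of those in HSC. The difference at Eif2s3y thus follows that of its chromosome in both cell types.

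**Figure D5:**
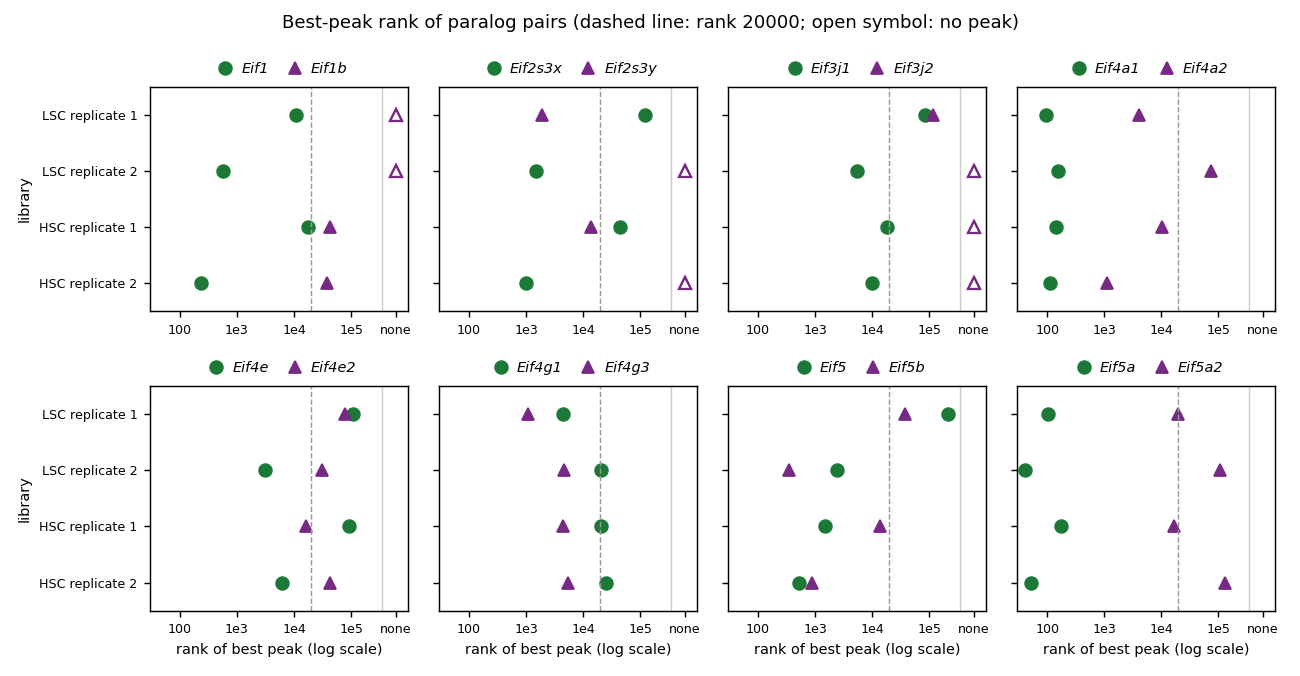
Rank of the best deposited peak (log scale) in each library for 8 pairs of related member genes; the dashed line is the cut at 20000 and an open symbol means no peak. Eif4a1 and Eif5a lie left of their relatives in all 4 libraries, and Eif2s3x and Eif2s3y change places between replicate 1 and replicate 2 libraries.

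Motifs were searched in the 52 promoter windows of the 40 members with RefSeq promoter sequence, each 250 bases before to 50 after a start, on both strands. The E-box CACGTG, the site of the Myc and Max family, was in the windows of 10 of 40 member genes (25%), beside 8.91% of the 17492 genes with such windows. Among the members listed in all 4 libraries it was in those of Eif4a1, Eif5a, Eif3f and Eif3k and not in those of Eif1 and Eif4g3. Counting the start base as 0, its first base was at -189 in Eif4a1, -74 in Eif5a, -68 in Eif3f and -44 in Eif3k, in the promoters printed above. Genes with the E-box and no such listing included Eif1b, which was listed nowhere, and Eif4h. The ETS core CCGGAAG was in the windows of 15 members (37.5%), beside 12.9%, and the GC box GGGCGG in those of 31 (77.5%), beside 49.2%. The YY1 core AAGATGGC was found at 5 members (12.5%), beside 3.57%, among them Eif4a1, Eif3f and the copies Eif2s3x and Eif2s3y. The NRF1 core GCATGCGC was at 3 (7.5%), beside 3.94%, and its matches on both strands of Eif3k overlap in the run of capitals there. TATAAA was at 4 (10.0%), beside 14.8%, and the cAMP element TGACGTCA at 0, beside 2.54%. These matches describe letters in the windows and not binding.

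Beside the members stand genes that act on the initiation factors. Of 34 regulators, helpers and elongation factors, 18 and 27 were listed in LSC replicates 1 and 2 (52.9% and 79.4%), beside backgrounds of 32.3% and 41.2%. In HSC replicates 1 and 2 they numbered 17 and 26 (50.0% and 76.5%), beside 30.2% and 41.2%, and 10 were listed in all 4 (29.4%), beside 11.3%. At gene ends the counts were 9 and 22 in LSC (26.5% and 64.7%), beside 11.0% and 25.5%, and 11 and 24 in HSC (32.4% and 70.6%), beside 10.6% and 25.1%. Atf4, Mknk2, Dohh and Eef1b2 were listed at gene ends in all 4 (11.8%), beside 2.91%. Among the genes of eIF2 phosphorylation, Atf4, the transcription factor made when eIF2 is phosphorylated, ranked 7468 and 2133 in LSC and 177 and 265 in HSC. The phosphatase subunit gene Ppp1r15b ranked 150133 and 444 in LSC and 226 and 333 in HSC. Mknk2, for a kinase of eIF4E, ranked 712 and 96 in LSC and 3781 and 160 in HSC, and Mtor, Rptor and Larp1 were also listed in all 4 by the wider window, with 0 libraries listing Larp1 at a gene end. Dohh, which completes the hypusine of eIF5A, ranked 422 and 684 in LSC and 6761 and 1521 in HSC. Listed peaks in both LSC libraries and none in HSC were found at 1 of the 34 genes, beside 2.35% of all protein-coding genes. The reverse case held 0 of 34, beside 2.09%, and no difference is read from these counts. The gene of the first case was Pabpc1, for the poly(A)-binding protein, with ranks of 778 and 4833 in LSC and 127356 and 38685 in HSC. By list, the eIF2 kinase and phosphatase genes with Atf4 gave 2 and 6 of 7 in LSC and 4 and 5 in HSC, and the mTOR and eIF4F control genes gave 5 and 7 of 8 in LSC and 6 and 6 in HSC. Initiation helpers gave 4 and 5 of 9 in LSC and 2 and 5 in HSC, the hypusine enzymes 1 and 1 of 2 in LSC and 1 and 2 in HSC, and elongation and release factors 6 and 8 of 8 in LSC and 4 and 8 in HSC.

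Marker genes of the sorted cells were looked up with the same window. Of all protein-coding genes, 32.3% and 41.2% were listed in LSC replicates 1 and 2 and 30.2% and 41.2% in HSC replicates 1 and 2. Of 6 stem cell markers, 2 and 3 were listed in LSC replicates 1 and 2 and 2 and 2 in HSC replicates 1 and 2. Among them were the long genes Mecom and Meis1 in every library. At gene ends 0 of the 6 were listed in any library, beside 11.0% and 25.5% of all genes in LSC and 10.6% and 25.1% in HSC. Of 6 granulocyte-monocyte markers, 4 and 2 were listed in LSC and 2 and 5 in HSC. Of 3 markers found in both cell types, 1 and 2 were listed in LSC and 2 and 2 in HSC, and of 5 markers of other lineages 0 and 2 were listed in LSC and 1 and 1 in HSC. Kit was listed in both HSC libraries alone, and Cd34 in LSC replicate 2 alone. Listed peaks at these few genes thus did not set the groups apart by their gates, and such counts do not test the labels.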

How the data were processed

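Ruvbl2 CUT&Tag was profiled in 4 libraries, 2 of LSC and 2 of HSC, each from 2000 to 5000 sorted cells and 17 to 20 PCR cycles, per the labels' protocols. The submitters' processing notes name FastQC 0.11.5, Bowtie2 2.2.9, MACS2, ChIPseeker and the build mm10, with no role or order for each. The sources used here do not give the version or threshold of MACS2 or the treatment of duplicates. Each library has a deposited peak list of its own, with the authors' fold (a ratio of summit pileup to background), −log10 p, −log10 q and score for each peak.

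From the deposited fold, whole-number pileups (within 0.05) over a constant background were recovered for 100.0% of peaks tested in each library. After unplaced scaffolds were dropped, leaving chromosomes 1 to 19 with X and Y, each list was ordered by −log10 p and cut at 20000 peaks. Overlap of at least 1 bp with the gene and 1000 bp flanks, in GRCm38.p6 coordinates, made a gene listed. Exons are not annotated in the table used. Start sites and strand came from RefSeq promoters, with no entry for Eif1a, Eif2b3, Eif3e, Eif3h, Eif3i, Eif3j2, Eif4e1b, Eif4e3, Eif4ebp1, Eif4ebp3, Eif4g2 and Eif6. Groups came from sample titles, since the cell type label names a stem cell for all 4. Overlap counting (python 3.11.15, pandas 2.3.3, scipy 1.17.1) was tested on simulated data. Named were members listed in all 4 libraries or in a single cell type, the member with the best median rank per factor, 8 pairs of related genes and members with no deposited peak anywhere, of which there were 0; others were added after their values were seen. The members and lists were chosen with earlier results of these data known.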

Additional observations from a re-analysis of the deposited data

How the results depend on the processing

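The count of 7 members listed in all 4 libraries was 12 with the 40000 strongest peaks, 41 with the full lists and 4 with start sites only, which leave out members without an annotated start. The full lists gave 78.8% of members, beside 61.2% of all genes, and start sites gave 10.0%, beside 2.84%. No background was counted for the 40000 strongest peaks. The count of members lay between 4 and 41 over the settings tried, and without a library between 7 and 11. Without a library, this count and the counts for a single cell type below can only stay or rise. Backgrounds without a library were not counted, and those of the single cell type counts were given for the main setting only. The single gene listed in both LSC and neither HSC library became 0 with the 10000 strongest peaks, the full lists, gene bodies without flanks, gene ends only and start sites only, 2 with the 40000 strongest, and 1 to 9 without a library. The 2 genes of the reverse case became 1 with the 10000 or 40000 strongest peaks, the full lists, the summit or most of the peak required in the window, 0 with gene ends or start sites only, and 4 to 6 without a library. With counts this small the genes change with the setting: Eif3i and Eif4enif1 took the place of Eif3a with 40000 peaks, Eif1b that of Eif2b3 and Eif2d with the full lists, and Eif4a2 that of Eif2d without flanks. The mean difference LSC minus HSC ran from -1.5 to 1.5 over the settings with all 4 libraries and from -8.5 to 8.5 without a library. With the replicate number as a replicate block it stayed 0 (p = 1, exact sign-flip permutation of the pairs, smallest possible p 0.5). Ranking by fold changed no count, but it could hardly do so. Fold and −log10 p both rise with the same pileup over a constant background in each library. The causes were not tested. Unequal full lists and unknown depth limit any statement on absent peaks.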
